A study of Homo sapiens with 6 samples.

Results

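The extracellular heparan sulfate sulfatases SULF1 and SULF2, the syndecans SDC1 to SDC4, the glypicans GPC1, GPC4 and GPC6, and perlecan (HSPG2) were examined as a set in human osteoblastic cells expressing a mutant histone. These 10 genes of the 35639 in the expression table were taken by name. The set was proposed with SULF1 known to be lower in both mutant libraries than in both wild-type libraries, so the members were selected on the values of that comparison, which are given here as a description, without a test.

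RNA sequencing was performed on hFOB 1.19, an osteoblast line of fetal human origin. It carries a viral T antigen that works only at low temperature, so the cells divide at 34 °C. Cells were transduced with a lentiviral vector carrying HA-tagged histone H3.3 with the G34W substitution (H3.3-G34W, called G34W here, the change found in giant cell tumour of bone), the same histone without it (H3.3-WT, called WT here) or no insert (EV, empty vector). All lines kept their own histone genes, the transgene was a Drosophila H3.3 cDNA, and transduced cells were sorted as a pool for the fluorescent marker of the vector. Cells were collected in duplicate 15 days after transduction from cultures at 34 °C, giving 2 libraries per group. The comparison of G34W with WT asks what the substitution changes, and that of WT with EV what added histone changes. The study uses the word replicates for separate culture wells within an experiment, but its sequencing methods do not say whether these duplicates were separate wells or separate infections, so p-values measure only the spread between these libraries, which may be technical. Groups follow the library titles. In the deposited labels, the genotype entry swaps WT and G34W relative to these titles, and every direction below depends on the titles.

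Heparan sulfate proteoglycans consist of a core protein carrying long sulfated sugar chains. The chains are polymerised by EXT1 and EXT2, modified in the Golgi by deacetylase-sulfotransferases and sulfotransferases, and edited outside the cell by SULF1 and SULF2, which remove sulfate from glucosamine residues. The sulfation pattern sets how fibroblast growth factors, WNTs, bone morphogenetic proteins and chemokines are held and presented to their receptors, and inherited loss of EXT1 or EXT2 causes cartilage-capped bone tumours. Syndecans cross the membrane, glypicans are attached to it by a lipid anchor, and perlecan is secreted into the pericellular matrix.

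The values are normalised estimated counts per gene, a signal scaled by library and not a read count, so the depth behind each value is unknown and no interval or detection limit was derived. EV replicate 1 was left out, as the choice of the set prescribed: 80.5% of all genes were listed at 0 in it, including 9 of the 10 members, and HSPG2 was listed at 58.1. The comparisons below therefore rest on 5 libraries, with EV represented by replicate 2 alone.

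Among these 5 libraries, G34W replicate 1 stood apart. It exceeded the highest of the other libraries more than 10-fold for 316 of the 16259 genes with a mean of at least 10, against 1 to 6 genes for each other library. More than 10-fold below the lowest of the others were 52 genes in G34W replicate 1 and 132 in WT replicate 2, the most of any library. Of 12 pluripotent stem cell markers, 11 exceeded the other libraries by that factor. Their summed signal was 66576 in G34W replicate 1, 964 in G34W replicate 2, 985 and 1073 in WT replicates 1 and 2, and 1142 in EV replicate 2. The most abundant of them was POU5F1 at 19441 in G34W replicate 1, and DNMT3B, at 395 to 541, in the others. PRDM14 was listed at 0 in EV replicate 2, and no other marker of this list was at 0 in any of the 5 libraries. The summed signal of 11 osteoblast lineage markers was 192674 in G34W replicate 1 and 203193 to 262737 in the other 4 libraries. COL1A2 was the most abundant in each library. RUNX2 and ALPL were detected in each. RUNX2 was lowest in G34W replicate 1 (236, against 387 to 573 elsewhere), whereas ALPL was highest there (1216, against 107 to 428). Of the later markers, SPP1 was at 171 to 649 and BGLAP at 4.08 to 44.9, while IBSP and SP7 had means under 10, and IBSP was listed at 0 in every library but EV replicate 2. Of the 4 epithelial markers, 2 (EPCAM and CDH1, both also expressed by pluripotent cells) exceeded the other libraries more than 10-fold in G34W replicate 1. KRT18 was the most abundant of this list everywhere, and the summed signal was 41667 in G34W replicate 1 against 35812 to 46726 elsewhere. Among 7 neural markers this held for DCX alone, and the summed signal was 10021 against 13321 to 21219. It held for 0 of 5 myeloid markers (935 against 1079 to 1324) and 0 of 5 endothelial markers (2324 against 876 to 2149.9), with TYROBP listed at 0 in all 5 libraries. Each log2 fold change printed for G34W against WT is therefore given with and without G34W replicate 1, and the part of these markers in the results was not tested. In bulk RNA, fewer cells of a type and less RNA per cell cannot be told apart.

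SULF1 (ENSG00000137573; chromosome 8, 69466781 to 69660912 in GRCh38.p14), the sulfatase named in the choice of the set, stood at 343 normalised estimated counts in EV replicate 2, 499.8 and 471 in WT replicates 1 and 2, and 146 and 239.5 in G34W replicates 1 and 2. Both G34W libraries lay below the other 3, and the EV library lay between the groups. The WT mean was 486 ± 20.0 (SD, n = 2) and the G34W mean 193 ± 66.1 (SD, n = 2). The log2 fold change, on the log2(value + 1) scale used throughout, was -1.37. It was -1.02 without G34W replicate 1 and -1.73 without G34W replicate 2, so SULF1 was below WT in each library taken alone. These values chose the set and support nothing further.

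SULF2 (ENSG00000196562; chromosome 20, 47657406 to 47786627), the second extracellular sulfatase, had 233 in EV replicate 2, 176 and 273 in WT replicates 1 and 2, and 588 and 228 in G34W replicates 1 and 2. The groups overlapped: only G34W replicate 1 was high, and G34W replicate 2 lay between the WT libraries. The log2 fold change of 0.74 fell to 0.06 without G34W replicate 1. Levels of different genes were compared per kilobase of the MANE Select transcript, a length that does not follow the isoforms these cells use. On that scale SULF1 made up 49.8% of the summed level of both sulfatases in EV replicate 2, 65.7% and 53.7% in WT replicates 1 and 2, and 14.3% and 41.4% in G34W replicates 1 and 2. SULF2 was the more abundant sulfatase in both G34W libraries and SULF1 in both WT libraries, with near equal levels in EV. The set was chosen with SULF1 known to be low in G34W, so its lower share there was favoured by the choice and supports nothing further. SULF2 itself was at 59.9 per kilobase in G34W replicate 2, between the 46.1 and 71.8 of WT replicates 1 and 2. The summed level was 180.3 per kilobase in G34W replicate 1, where SULF2 was high, and 102 in G34W replicate 2, against 134 and 155 in WT.

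**Figure D1:**
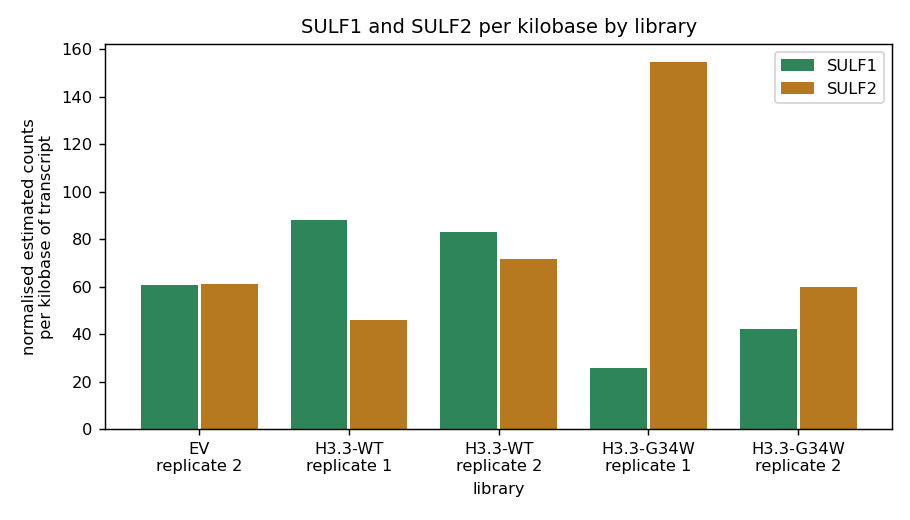
Bars show SULF1 and SULF2 in normalised estimated counts per kilobase of transcript (vertical axis, from 0) in each of 5 libraries (horizontal axis). SULF1 was below SULF2 in both G34W libraries, where it made up 14.3% and 41.4% of the sum, and SULF2 was high in G34W replicate 1. The set was chosen with SULF1 known to be low in both G34W libraries.

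Among the 8 core proteins of the set, SDC4 was the most abundant per kilobase. SDC4 (ENSG00000124145; chromosome 20, 45325288 to 45348424), a focal adhesion syndecan, had a mean over the 5 libraries of 7719 ± 1753 per kilobase (SD), followed by SDC1 (ENSG00000115884; chromosome 2, 20200797 to 20225475) at 3213 ± 706 and GPC1 (ENSG00000063660; chromosome 2, 240435663 to 240468076) at 2191 ± 643. This order of the leading genes was the same in each of the 5 libraries. AGRN (agrin), a core protein outside the set that was named after its values were seen, was at 3876 ± 854 per kilobase (SD), so the order holds only within the set. SDC2 (ENSG00000169439; chromosome 8, 96493813 to 96611790) at 532.5 ± 118, SDC3 (ENSG00000162512; chromosome 1, 30869466 to 30909735) at 517 ± 111 and HSPG2 (ENSG00000142798; chromosome 1, 21822244 to 21937310) at 436 ± 127 differed by less than their spread and changed places between libraries. GPC6 (ENSG00000183098; chromosome 13, 93216529 to 94408020) was at 102 ± 16.1. Of the summed level of the 8 core proteins, syndecans took 74.8% to 85.9%, the glypicans 11.4% to 21.3% and perlecan 1.92% to 3.91% over the 5 libraries.

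SDC2, a syndecan of mesenchymal and bone cells, had 1464 normalised estimated counts in EV replicate 2, 1666 and 1443 in WT replicates 1 and 2, and 2399.7 and 1832 in G34W replicates 1 and 2. Both G34W libraries were above both WT libraries and the EV library. Its log2 fold change was 0.43, and 0.24 without G34W replicate 1. SULF1 was the only member with both G34W libraries below both WT libraries (1 of 10), an arrangement found for 14.7% of all genes tested, and SDC2 the only member with both above (1 of 10), found for 11.6%. Since this comparison chose the set, nothing is read from these counts.

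The other syndecans overlapped between groups. SDC1, better known from epithelia and plasma cells, had 12170.4 in EV replicate 2, 9319 and 12444 in WT replicates 1 and 2, and 7009.7 and 9902 in G34W replicates 1 and 2. SDC4 had 19046 in EV replicate 2, 17253 and 26549 in WT, and 15082 and 22926 in G34W. SDC3 had 2628 in EV replicate 2, 2099 and 2668 in WT, and 2504 and 3673 in G34W. For SDC1 and SDC4 the lowest library was G34W replicate 1, while SDC3 was highest in G34W replicate 2. The log2 fold change was -0.37 for SDC1, -0.20 for SDC4 and 0.36 for SDC3. Without G34W replicate 1, that of SDC4 changed sign to 0.10, that of SDC1 was -0.12 and that of SDC3 0.63, whereas without G34W replicate 2 that of SDC3 was 0.08.

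GPC4 (ENSG00000076716; chromosome X, 133300103 to 133415489) was the member that varied most. It had 21.2 in EV replicate 2, 23.9 and 16.0 in WT replicates 1 and 2, 3966 in G34W replicate 1 and 21.0 in G34W replicate 2. GPC4 was low in 4 libraries and 166-fold above the highest of these in G34W replicate 1. Its log2 fold change of 3.84 was 0.10 without that library. Per kilobase, GPC4 was the least abundant core protein in the other 4 libraries and ranked 4 of 8 in G34W replicate 1, where it made up 6.90% of the summed core protein level. GPC3, the neighbouring glypican gene 120255 bases away on chromosome X, was named after its values were seen. It was at 301 in G34W replicate 1 and between 4.43 and 5.77 in the other 4 libraries. Both glypicans were thus high in the same library as the pluripotent stem cell markers, whose part in this was not tested.

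**Figure D2:**
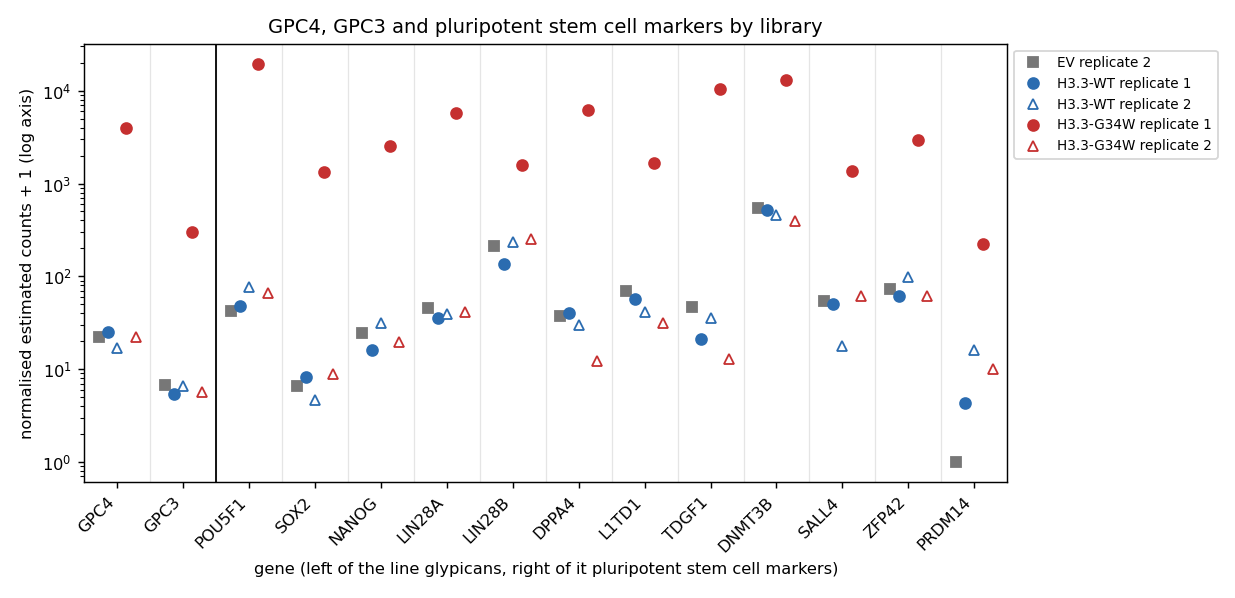
Points show normalised estimated counts plus 1 (vertical log axis) of GPC4, GPC3 and 12 pluripotent stem cell markers (horizontal axis) in 5 libraries. G34W replicate 1 was the highest for each gene, with GPC4 at 3966 and POU5F1 at 19441, and the other 4 libraries spread most for PRDM14, from 0 to 15.3 against 223.

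GPC1 had 9822 in EV replicate 2, 10693 and 7069 in WT replicates 1 and 2, and 4639 and 8526 in G34W replicates 1 and 2. GPC6 had 718 in EV replicate 2, 699.9 and 694 in WT, and 914 and 601 in G34W. HSPG2, the largest of these core proteins and a component of basement membranes and cartilage matrix, had 6199.9 in EV replicate 2, 7827 and 6722 in WT, and 3187 and 7335 in G34W. GPC1 and HSPG2 were low in G34W replicate 1 alone, and for GPC6 the G34W libraries fell on either side of WT. The log2 fold change was -0.47 for GPC1, -0.59 for HSPG2 and 0.09 for GPC6. Without G34W replicate 1 it was -0.03 for GPC1, 0.02 for HSPG2 and -0.21 for GPC6, so that SDC4, GPC6 and HSPG2 were the 3 members whose sign changed.

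**Figure D3:**
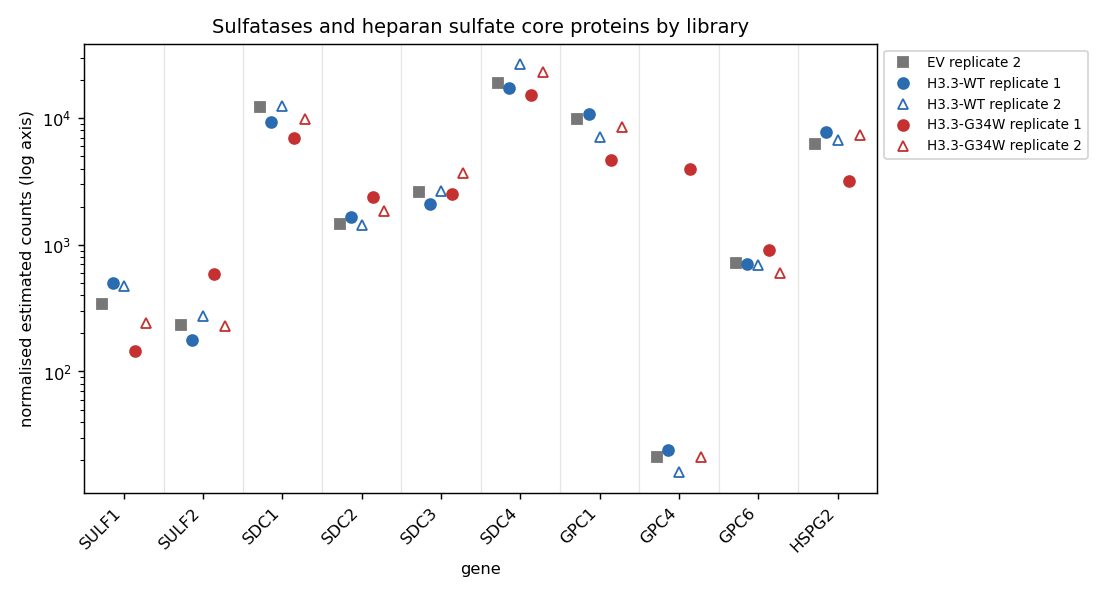
Points show normalised estimated counts (vertical log axis) of the 10 genes (horizontal axis) in EV replicate 2, WT and G34W replicates 1 and 2. SULF1 was lower in both G34W libraries (146 and 239.5) than in the other 3, and GPC4 was high in G34W replicate 1 alone (3966).

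G34W replicate 1 was the highest of the 5 libraries for 4 members and the lowest for 5. The median absolute log2 difference between replicates was 0.66 for the members in G34W and 0.38 in WT, beside 0.41 and 0.36 over all genes tested. The median log2 fold change of the members was -0.06, beside -0.06 for all 16259 genes tested, and 5 of 10 members were above 0. Without G34W replicate 1 the medians were 0.04 for the members and 0.04 for all genes.

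**Figure D4:**
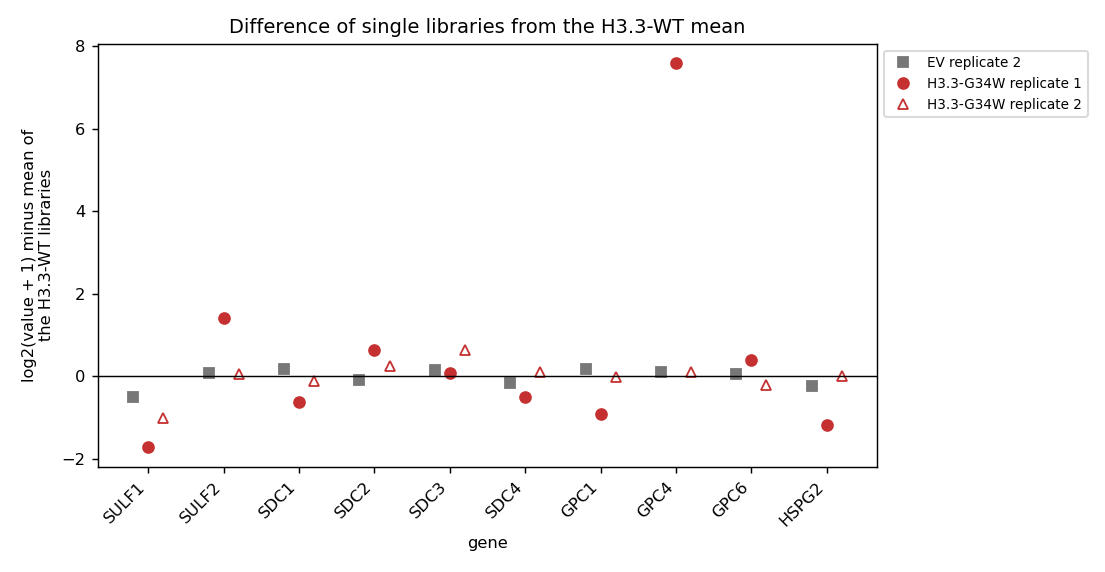
Points show log2(value + 1) of EV replicate 2 and of each G34W library minus the mean of the WT libraries (vertical axis) for the 10 genes (horizontal axis). SULF1 was below 0 in both G34W libraries (-1.73 and -1.02), and GPC4 reached 7.59 in G34W replicate 1.

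The comparison of WT with EV replicate 2 was not used to choose the set, although the WT libraries also entered the comparison that did. That choice favoured high WT values of SULF1, so the difference of SULF1 from EV replicate 2 is no independent result. SULF1 was 0.50 higher on the log2 scale in WT (standard error 0.43), with both WT libraries above the EV library. It did not pass the threshold (limma, adjusted p = 1). The other 9 members had log2 fold changes from -0.18 for SDC1 to 0.23 for HSPG2. With the EV library taken to vary like the other groups, limma called 0 of 10 members and 0 of 16259 genes (0%) at an adjusted p under 0.05. At an unadjusted p under 0.05 it gave 0 of 10 members and 377 genes (2.32%). Both WT libraries lay above EV replicate 2 for 2 members, SULF1 and HSPG2, as for 29.6% of all genes tested, and below it for 1 member, GPC6, as for 26.2%. EV replicate 2 lay between the WT libraries for the remaining 7. The median of the members was -0.07, beside 0.02 for all genes. The test pools the spread of both histone groups, G34W replicate 1 included, and for SULF1 the adjusted p was also 1 without that library. The WT libraries themselves differed by 0.08 for SULF1 and 0.01 for GPC6 on the log2 scale, less than the distance of EV replicate 2 from their mean (0.50 below and 0.04 above). For HSPG2 they differed by 0.22, about the distance of EV replicate 2 (0.23 below). With 1 EV library, and a fit that can miss large changes at the spread of these libraries, a missed threshold does not show that levels were equal.

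To place these genes in their pathway, 98 further genes in 10 lists were followed, of which 91 had a mean of at least 10 and were tested. The lists were chosen with earlier results of these data known, so their counts and p-values are a description and no independent support. Between G34W and WT, limma called 0 of the 91 and 0 of 16259 genes (0%) at an adjusted p under 0.05. The same limit of the fit holds for these counts of 0. At an unadjusted p under 0.05 it gave 5 of the 91 and 486 of all genes (2.99%). These 5 were HS3ST5, MDK, SPRY1 and BCAN, which were higher, and FGF7, which was lower; BCAN and FGF7 had low values and were named after these were seen. BCAN was among 6 of the 91 genes that reached a mean of 10 only through the G34W libraries (with GPC3, SPOCK2, HS6ST2, FGFR2 and NCAN, also named afterwards), so these had to be higher there, and the counts and list medians that include them support nothing. Both G34W libraries were below both WT libraries for 9 of the 91, beside 14.7% of all genes tested, and above for 16, beside 11.6%. In the comparison of WT with EV, 0 of the 91 were called and 0 had an unadjusted p under 0.05. No list was tested as a whole. Leaving out 1 library or another changed the sign of the median log2 fold change between G34W and WT for 6 of the 10 lists, and rescaling for 2 (linkage and chain polymerisation, and chondroitin and dermatan sulfate core proteins), so no direction is drawn from these medians.

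The other heparan sulfate core proteins had a median log2 fold change of -0.08 between G34W and WT over 9 genes, and 0.22 without G34W replicate 1. With each library left out in turn, it lay between -0.32 and 0.27. GPC2, a glypican of developing neural tissue, had 234 and 235 in WT and 251 and 319.7 in G34W (log2 fold change 0.27, unadjusted p = 0.371 and adjusted p = 1 from limma), and its log2 fold change was 0.45 without G34W replicate 1. Linkage and chain polymerisation had a median of -0.02 over 12 genes (0.16 without that library). The polymerase subunit EXT1 was at 13373 and 15722 in WT and 10832 and 13729 in G34W, and its partner EXT2 at 9359.7 and 8931 against 8791 and 11502, so both overlapped between groups. EXTL2, a related glycosyltransferase, was at 818 and 786 in WT and 1347 and 932 in G34W, above in both libraries, with a log2 fold change of 0.48 (standard error 0.31) that fell to 0.22 without G34W replicate 1. The groups also did not overlap for B4GALT7 (log2 fold change -0.25, and -0.11 without that library) and PXYLP1 (0.20 and 0.28), enzymes of the linkage region.

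Chain modification genes had a median of 0.03 over the 12 of 16 genes tested (0.16 without G34W replicate 1). NDST2, which replaces acetyl groups of the chain by sulfate, was at 592 in EV replicate 2, 553 and 602 in WT, and 858 and 1181 in G34W. Both G34W libraries were above the other 3, with a log2 fold change of 0.80 (standard error 0.30) that was 1.03 without G34W replicate 1. HS3ST5, a sulfotransferase acting late in chain modification, was at 46.1 in EV replicate 2, 49.6 and 38.6 in WT, and 125 and 83.4 in G34W. Its log2 fold change was 1.20 (standard error 0.34), and 0.91 without G34W replicate 1. The enzymes that add the sulfate removed by SULF1 and SULF2 differed in level: HS6ST1 was at 1669 and 1733 in WT and 1934 and 1873 in G34W, whereas HS6ST2 was at 147 in G34W replicate 1, with no other library above 11.4. NDST1 and HS2ST1 overlapped between groups, with log2 fold changes of -0.16 and 0.28, and of -0.00168 and 0.44 without G34W replicate 1.

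Sulfate supply and sulfatase activation had a median of 0.05 over 7 genes (0.12 without G34W replicate 1). SUMF1, which activates sulfatases by converting a cysteine of their active site, was at 1099 and 1130 in WT and 1213 and 1251 in G34W (log2 fold change 0.14, and 0.17 without that library). SLC26A2, a sulfate transporter, was at 2039 and 1863 in WT and 1654 and 1813 in G34W (log2 fold change -0.17, and -0.10 without that library). Chain degradation had a median of 0.10 over 9 of 10 genes (0.31), and heparanase, HPSE, which cleaves the chains, overlapped at 518 and 381 against 407 and 671. The lysosomal enzyme GUSB was at 2372 and 2307 in WT and 2507 and 3398 in G34W (log2 fold change 0.32, and 0.54 without G34W replicate 1). Core protein handling, which includes sheddases and the syndecan adaptor SDCBP, had a median of 0.14 over 7 genes (0.27). These medians stood beside -0.06 for all genes tested, and 0.04 without G34W replicate 1.

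Heparin-binding ligands had a median of -0.22 over 15 of 16 genes, and -0.07 without G34W replicate 1. Both G34W libraries were below both WT libraries for 5 of the 15, beside 14.7% of all genes, and above for 2, beside 11.6%. MDK (midkine), a heparin-binding growth factor, was at 544 in EV replicate 2, 336.5 and 489 in WT, and 1197 and 940.1 in G34W. Both G34W libraries were above the other 3, with a log2 fold change of 1.38 (standard error 0.33) that was 1.21 without G34W replicate 1. HBEGF, an epidermal growth factor family ligand, was at 4574 in EV replicate 2, 4613 and 4997 in WT, and 3169 and 3344 in G34W, below the other 3 libraries in both. Its log2 fold change was -0.56 (standard error 0.25), and -0.52 without G34W replicate 1. FGF2 had a log2 fold change of -0.55 and the bone morphogenetic protein antagonist GREM1 one of -0.88, with WT replicate 2 high for both. Without that library they were -0.195 and -0.18, and without G34W replicate 1 -0.39 and -0.96.

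FGF receptors had a median of 0.18 over 5 genes (0.28 without G34W replicate 1), and FGFR4 was at 731 and 803 in WT and 946 and 1093 in G34W, beside 1044 in EV replicate 2. FGF feedback genes, which are induced by signalling through these receptors and include its inhibitors, had a median of 0.05 over 8 genes (0.01). SPRY1 was at 143 in EV replicate 2, 96.8 and 76.9 in WT, and 273 and 162 in G34W, above the other 3 libraries in both, with a log2 fold change of 1.28 (standard error 0.38) that was 0.90 without G34W replicate 1. The phosphatase DUSP6 was at 2874 in EV replicate 2, 2742 and 2934 in WT, and 4105 and 3540 in G34W (log2 fold change 0.43, and 0.32 without G34W replicate 1). Chondroitin and dermatan sulfate core proteins, followed as proteoglycans of another chain type, had a median of -0.04 over 7 of 8 genes (-0.30). DCN (decorin) was at 449 in EV replicate 2, 506 and 397 in WT, and 201 and 298 in G34W, and its log2 fold change was -0.87 (standard error 0.34), and -0.59 without G34W replicate 1. For every gene named from these lists, the limma p adjusted over all genes was above 0.05.

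**Figure D5:**
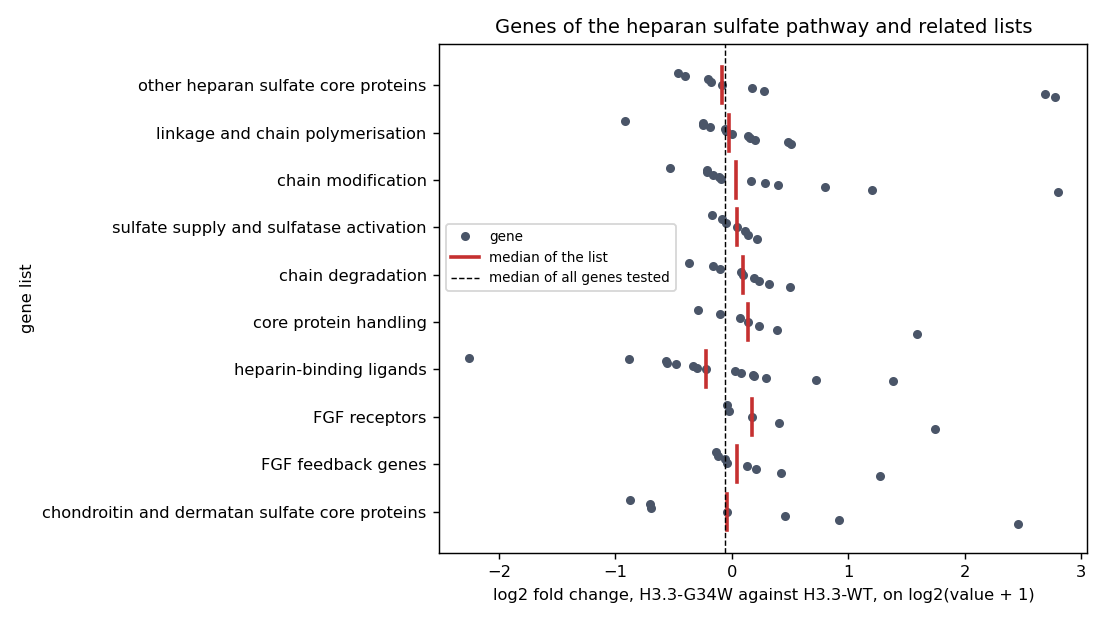
Each point is a gene of the list on the vertical axis, at its log2 fold change of G34W against WT (horizontal axis, log2(value + 1) scale). Red bars mark list medians, from -0.22 to 0.18, and the dashed line the median of all genes tested (-0.06).

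The genes most like SULF1 over the 5 libraries were sought among 13377 genes with a mean of at least 50, by the Euclidean distance of centred log2(value + 1) values. The nearest was FGF5, a fibroblast growth factor, at a distance of 0.23, followed by COL19A1 (0.27), PTGS2 (0.35), ZC3H12D (0.36) and AC009779.4 (0.365). FGF5 was at 561 in EV replicate 2, 784 and 851 in WT, and 278 and 438 in G34W. PTGS2, the inducible cyclooxygenase, was at 893 in EV replicate 2, 1058 and 1113 in WT, and 429 and 578 in G34W. Both had the order seen for SULF1, with WT highest, EV between and G34W replicate 1 lowest. A search for likeness to SULF1 over the same libraries favours that order. Among the members, HSPG2 was nearest to SULF1, at a distance of 0.87 and rank 234, and GPC4 farthest, at 8.01. With 5 libraries and this many genes, such likeness is a description.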

How the data were processed

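Per the labels and the study's methods, poly(A) RNA was prepared with a directional kit and sequenced on an Illumina HiSeq. A further passage of the methods describes another library kit and HiSeq model, so the sources conflict on the library type. The authors ran kallisto against GRCh38 transcripts of Ensembl, summed the estimates by gene through tximport and scaled them in DESeq2; the deposited signal is normalised estimated counts. Whether strand was used in counting is not given in the sources used here, and GPC1, GPC6 and HSPG2, for example, overlap other annotated genes.

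From these values, genes with a mean of at least 10 over 5 libraries (16259, including all 10 members) were transformed as log2(value + 1) and fitted with limma 3.58.1 in R 4.3.3, without covariates and with Benjamini-Hochberg adjustment over all genes (threshold 0.05). Tested on simulated data, the fit called known large changes where all genes had the same small spread, and called none of them where the spread was uneven, whether set by hand or as limma estimated it from these libraries. A fold change on this scale understates that of low genes. EV is 1 library, assumed to vary like the others. Coordinates are RefSeq, GRCh38.p14, and transcript lengths are from GENCODE, matched by identifier for 10 of 10 members. Members and lists were chosen with earlier results of these data known. From each list at most 4 genes were named: those with the largest change among genes with a mean of at least 50 whose groups did not overlap, besides EXT1, EXT2, NDST1, HS2ST1, HS6ST1, HS6ST2 and HPSE. A gene that this rule names is not reported here. Marker lists covered osteoblast, pluripotent, neural, myeloid, endothelial and epithelial cells. Alternatives were pseudocounts of 0.1 and 10, no filter, a variance trend, median ratio rescaling, EV replicate 1 kept, a replicate block, only the WT and G34W libraries, and leaving out each library. Figures were drawn with matplotlib 3.10.9.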

Additional observations from a re-analysis of the deposited data

How the results depend on the processing

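Counts of genes called by limma at an adjusted p under 0.05 were 0 in both comparisons under every alternative but a pseudocount of 0.1, which called 3 genes between G34W and WT (AC146944.1, AP002748.5 and PNMA6B) and 2 between WT and EV (HSPA1B and AP002748.5), each listed at 0 in at least 2 of the 5 libraries. None is a member or in a pathway list. Unadjusted p under 0.05 was reached by 486 and 377 genes, and by 439 and 157 with a variance trend and 1014 and 1277 without the filter, and by 5 and 12 with EV replicate 1 kept. Between G34W and WT, 486 genes reached it without G34W replicate 1 and 1606 without G34W replicate 2.

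The sources used here do not say whether libraries that share a replicate number were prepared together. The deviations of same-numbered WT and G34W libraries correlated at 0.09 across genes, over 2 pairs. G34W replicate 1, which stood apart, enters this correlation, so the value cannot decide whether the libraries were paired. With the number as a replicate block, 0 genes were called in both comparisons (670 and 541 at an unadjusted p under 0.05). Under the block, the WT against EV log2 fold change changed sign for SDC1 (0.0523), SDC2 (-0.0668) and SDC3 (0.0738), and moved from -0.11 to -2.12 for GPC4, 0.17 to 0.47 for SDC4, 0.23 to 0.47 for HSPG2, -0.09 to -0.27 for SULF2, -0.04 to -0.20 for GPC6, -0.18 to -0.11 for GPC1 and 0.50 to 0.66 for SULF1.

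Without WT replicate 1 that fold change changed sign for SULF2 (-0.41 to 0.23 over the libraries left out), SDC1 (-0.39 to 0.0320), SDC2 (-0.0212 to 0.19) and SDC3 (-0.32 to 0.0221), and without WT replicate 2 for SDC4 (-0.14 to 0.48), GPC1 (-0.47 to 0.12) and GPC4 (-0.39 to 0.16); none passed the threshold, and the cause was not tested. Between G34W and WT, leaving out 1 library gave -1.73 to -1.02 for SULF1, 0.06 to 1.42 for SULF2, -0.62 to -0.12 for SDC1, 0.24 to 0.63 for SDC2, 0.08 to 0.63 for SDC3, -0.51 to 0.11 for SDC4, -0.91 to -0.03 for GPC1, 0.10 to 7.59 for GPC4, -0.21 to 0.39 for GPC6 and -1.19 to 0.02 for HSPG2. Rescaling moved the median of all genes from -0.06 to 0.01. The limits are 2 libraries per group, 1 EV library, unknown depth and a library that stood apart.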
